A study of Mus musculus with 25 samples.

Results

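The Notch pathway genes followed here were 10 of the 37406 genes listed in the expression table: the ligand genes Jag1 and Dll4, the receptor genes Notch1, Notch2, Notch3 and Notch4, and the target genes Hes1, Hey1, Hey2 and Heyl. Their rows were found by gene symbol, and each symbol had 1 row. The genes were chosen with earlier results of these data known. Expression was measured by RNA-seq of palate tissue cut out with a laser (laser capture microdissection) from wild-type CD1 mouse embryos at E14.5, when the shelves have met in the midline. The 25 libraries came from 8 compartments: the anterior palate and the posterior palate were each sampled as medial, lateral, oral and nasal tissue, in 3 libraries per compartment except anterior nasal, which had 4. No group carried a mutation or a treatment, so all comparisons are between regions of normal tissue. The shelf was divided along its width for medial and lateral and along its height for oral and nasal, so the compartments of 1 end of the palate are not 4 separate parts of a whole.

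Notch signalling passes between cells that touch. A ligand of the Jagged or Delta-like family on one cell binds a Notch receptor on its neighbour, proteases release the receptor's intracellular part, and this fragment joins the DNA-binding protein RBPJ in the nucleus and turns on genes of the Hes and Hey families, which encode basic helix-loop-helix repressors. Jag1 is known for its part in craniofacial and vascular development. In blood vessels Dll4, Notch1 and Notch4 act in the endothelium, Notch3 acts in smooth muscle and pericytes, and Hey1, Hey2 and Heyl are used by arteries and mural cells.

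Values are RPKM, read numbers divided by transcript length and by the depth of the library, so levels can be compared between genes. The depth that the values imply was 1.64 to 6.56 M reads per library, at which 1 RPKM on a transcript of 2000 bases stands for 3.28 to 13.1 reads; a level under 1 RPKM therefore rests on few reads. All 10 mesenchyme markers looked up (among them Twist1, Prrx1 and Pdgfra) were above 0 in every compartment, and their sum lay between 886 and 1659 RPKM. Endothelial tissue was present too: the vessel gene Pecam1 was at 5.67 to 43.1 RPKM and at 0 in no library. Posterior medial replicate 2 stood apart, with a mean correlation across genes of 0.652 with the other libraries of its compartment, 12935 genes above 0 against 16330 or more elsewhere, and Dll4, Hey1, Hey2 and Heyl all listed at 0. Anterior oral replicate 1 came next at 0.703.

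Among the ligands, Jag1 was the higher gene in 24 of 25 libraries. The receptors were led by Notch2, which was the highest of the 4 in 24 of 25 libraries. The leading target changed with the compartment: Hes1 was highest in 12 libraries, Hey1 in 8 and Heyl in 5, while Hey2 led in 0. Fewer cells of a type and less RNA per cell cannot be told apart in these bulk samples, and this holds for every level below.

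**Figure D1:**
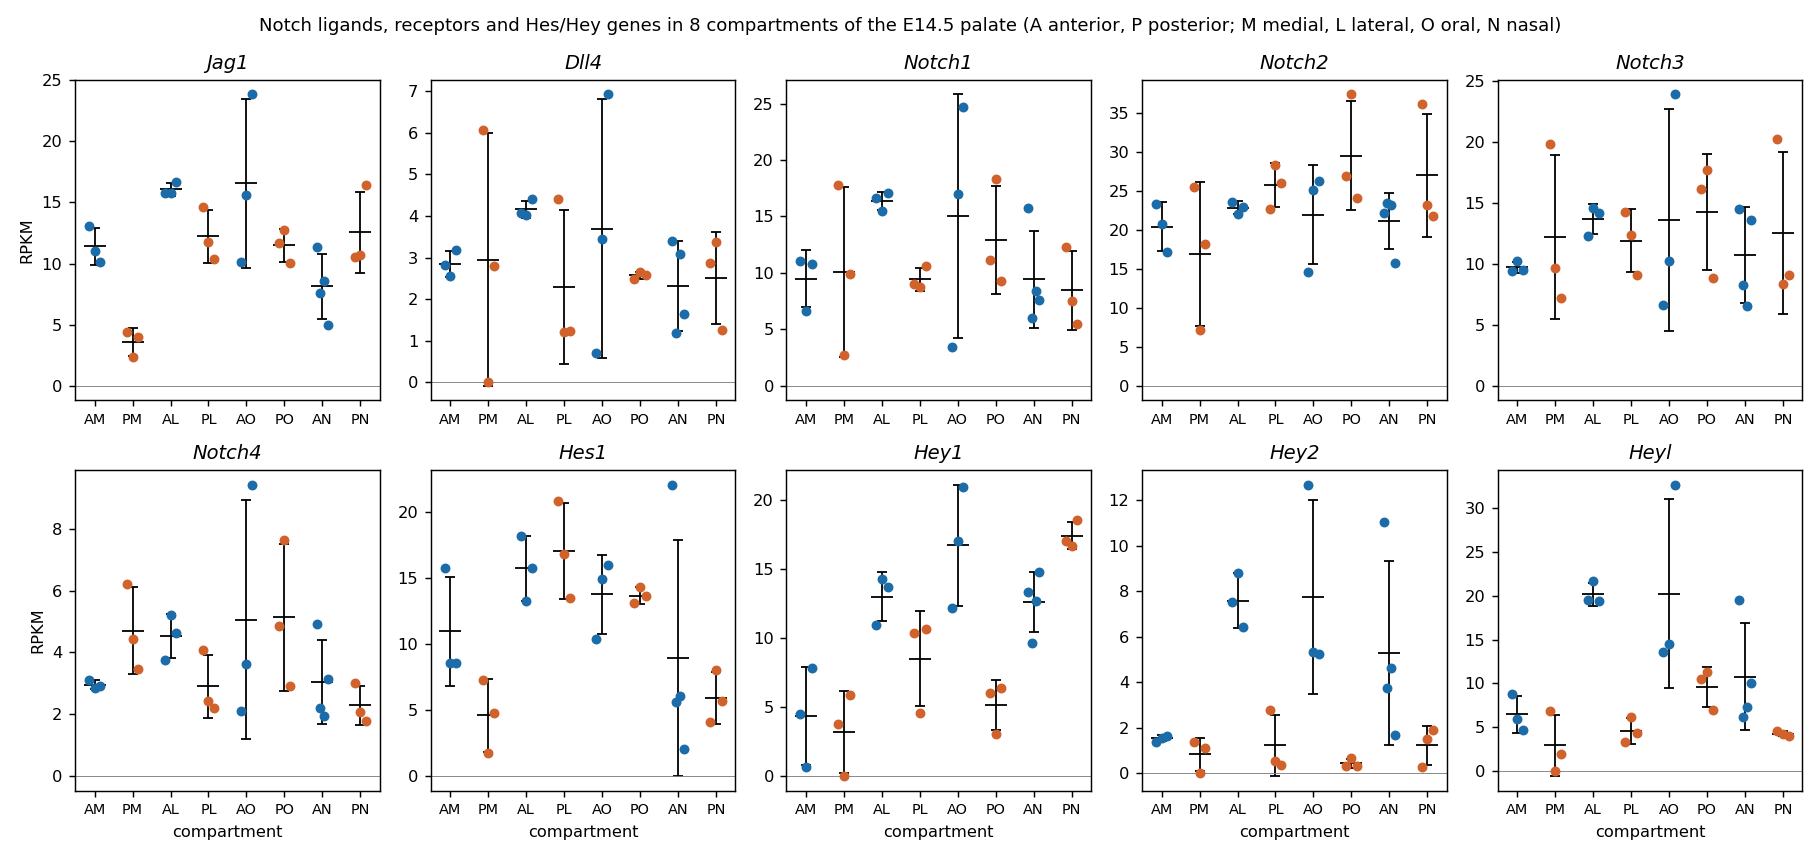
RPKM of each gene (vertical axis) in the 8 compartments (horizontal axis; A anterior in blue, P posterior in orange, M medial, L lateral, O oral, N nasal). Points are libraries, and bars show the mean and SD (n = 3, or 4 for anterior nasal). Hey2 stays at or below 2.77 RPKM in the posterior libraries, Jag1 is lowest in posterior medial, and Notch2 lies between 7.14 and 37.4 RPKM.

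Jag1 ranged from 2.33 to 23.9 RPKM over the 25 libraries, with a median of 11.1. By mean it was highest in anterior oral (16.6 ± 6.89, SD, n = 3) and anterior lateral (16.1 ± 0.520, n = 3), and then came posterior nasal, posterior lateral, posterior oral, anterior medial, anterior nasal (8.13 ± 2.63, n = 4) and posterior medial (3.59 ± 1.11, n = 3). Only the step from anterior nasal down to posterior medial lay between ranges that did not overlap. The posterior medial libraries, at 4.43, 2.33 and 4.01 RPKM, were the 3 lowest of the 25. Dll4, the endothelial Delta-like ligand, was far lower, with a median of 2.83 RPKM and only 2 libraries at 5 RPKM or more; anterior oral replicate 3 was highest at 6.92. Dll4 was highest by mean in anterior lateral, where the libraries were at 4.06, 4.03 and 4.40, and no neighbouring pair of compartments in its order had separate ranges.

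Notch2 was at 7.14 to 37.4 RPKM (median 23.2) and was at 5 RPKM or more in all 25 libraries, as was Notch3 at 6.52 to 23.9 (median 10.3). Notch1 lay between 2.71 and 24.7 RPKM (median 10.6). Notch4 was low, at 1.78 to 9.43 RPKM (median 3.15), and reached 5 RPKM in 4 libraries. The compartment means of the receptors ran from 17.0 to 29.5 for Notch2, 9.74 to 14.3 for Notch3, 8.45 to 16.4 for Notch1 and 2.29 to 5.14 for Notch4, and for none of the 4 did 2 compartments next to each other in the order have ranges apart.

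Among the targets, Hes1, a repressor that keeps progenitor cells undifferentiated in several tissues, was highest in posterior lateral (17.1 ± 3.67, n = 3) and anterior lateral (15.8 ± 2.45, n = 3) and lowest in posterior medial (4.62 ± 2.78, n = 3). Hey1 was highest in posterior nasal (17.4 ± 0.987, n = 3) and anterior oral (16.7 ± 4.39, n = 3), with the medial compartments at the bottom. Heyl was highest in anterior oral (20.3 ± 10.8, n = 3) and anterior lateral (20.2 ± 1.29, n = 3). Hey2 was highest in anterior oral (7.76 ± 4.27, n = 3) and anterior lateral (7.58 ± 1.204, n = 3) and then anterior nasal (5.27 ± 4.04, n = 4); the libraries of the other 5 compartments were at 0 to 2.77 RPKM. Apart from the step of Hey2 from anterior nasal to anterior medial, the targets showed no step between neighbouring compartments with ranges apart.

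In mm9, the build named in the submitters' processing notes, Jag1 lies at chr2:136907194-136942067 and Dll4 at chr2:119151520-119161402. The receptor genes lie at chr2:26313422-26359342 (Notch1), chr3:97817461-97954290 (Notch2), chr17:32257838-32303797 (Notch3) and chr17:34701240-34725488 (Notch4). The targets lie at chr16:30065443-30067882 (Hes1), chr3:8663359-8667038 (Hey1), chr10:30552165-30562589 (Hey2) and chr4:122910799-122927113 (Heyl). The promoter of Hey2, the gene with the largest differences between compartments below, was read from RefSeq (GRCm38.p6, chr10:30842774-30843033, minus strand), from 250 bases before the annotated start to 10 bases from it. The RBPJ recognition letters GTGGGAA, searched on both strands, are in capitals. They occur at position -207, where the other strand carries them, and at -4, counting back from the start with the base before it as -1.
Hey2: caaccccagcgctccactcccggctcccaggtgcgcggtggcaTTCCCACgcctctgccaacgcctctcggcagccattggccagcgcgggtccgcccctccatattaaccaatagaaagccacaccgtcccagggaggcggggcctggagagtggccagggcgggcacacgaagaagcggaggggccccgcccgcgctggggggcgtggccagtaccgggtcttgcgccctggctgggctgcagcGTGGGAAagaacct
Windows from 250 bases before the start to 50 after it were at hand for 7 of the 10 genes, and in those of Jag1, Dll4, Notch1, Notch2, Notch3 and Notch4 these letters do not occur. Of all 32851 windows 6.38% hold them. Hes1, Hey1 and Heyl were not among the windows used. A match is a description of the letters and says nothing of binding in these cells.

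The first comparison asked which genes mark the lateral against the medial shelf in the anterior palate. Hey2 and Heyl were higher in anterior lateral, by 4.68-fold and 3.19-fold. Hey2 was at 7.51, 8.81 and 6.41 RPKM in the lateral libraries and at 1.38, 1.57 and 1.65 in the medial ones. Heyl was at 19.5, 21.7 and 19.4 RPKM in lateral and at 8.84, 5.89 and 4.69 in medial. For both genes every lateral library lay above every medial one. The log2 fold change was 2.23 for Hey2 (SE 0.15, adjusted p = 0.000799) and 1.67 for Heyl (SE 0.22, adjusted p = 0.0104; limma with Benjamini-Hochberg adjustment). Of all 10427 genes tested 2.51% passed, and 1.43% were higher in lateral. Hey2 reached the minimum of 5 RPKM in 3 libraries only through its lateral libraries and so had to differ, so the 2 of 8 tested genes that passed are not read against that share. With a minimum of 1 RPKM the adjusted p of Hey2 was 0.00632, and with none it was 0.0156.

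Hey1 averaged 12.97 ± 1.77 RPKM in anterior lateral and 4.35 ± 3.57 in anterior medial (n = 3 each). The lateral libraries held 11.0, 14.3 and 13.7 and the medial ones 4.52, 0.691 and 7.83, with no overlap. Its log2 difference of 2.08 (SE 0.75) met the thresholds the study used, an unadjusted p under 0.05 with a fold change over 2, but its adjusted p was 0.239. Without anterior medial replicate 2 the difference was 1.101. In all, 6 of the 8 tested genes had an unadjusted p under 0.05, against 15.0% of all genes, and Hey1, Hey2 and Heyl met the study's thresholds, as did 2.37% of all genes, 1.41% with lateral the higher. Of the medial libraries only 1 of 3 reached 5 RPKM for Hey1, 0 of 3 for Hey2 and 2 of 3 for Heyl, so all 3 genes needed their lateral libraries to be tested, and the counts are a description. Hes1 overlapped between the compartments (13.3 to 18.2 against 8.56 to 15.8 RPKM), with a log2 difference of 0.57 and an adjusted p of 0.353.

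Ligands and receptors leaned the same way by smaller amounts, none past an adjusted p of 0.05. Jag1 was at 15.8, 15.8 and 16.7 RPKM in lateral and 13.05, 11.1 and 10.1 in medial, a log2 difference of 0.50 (SE 0.13, adjusted p = 0.107, limma). The difference was 0.82 for Notch1 (adjusted p = 0.0987), 0.48 for Notch3 (adjusted p = 0.0911) and 0.17 for Notch2 (adjusted p = 0.645), also by limma. Dll4 and Notch4 were under the minimum and were not tested. Of all 10 genes, 8 had lateral libraries that lay entirely above the medial ones, Notch2 and Hes1 being the exceptions. Of the 8 tested genes this held for 6. Among all genes tested, groups did not overlap for 21.3%, and lateral was the higher in 9.72%. The median log2 difference was 0.69 over the 8 tested genes and -0.03 over all genes. Hey1, Hey2 and Heyl needed their lateral libraries to be tested, so the count and the median are a description and are not read against all genes.

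The markers of vessels moved with this comparison. The summed level of 12 endothelial markers was 252 to 285 RPKM in anterior lateral and 178 to 215 in anterior medial. The 5 arterial markers summed to 79.0 to 105 against 41.0 to 45.2, and the 12 mural and smooth muscle markers to 264 to 265 against 139 to 196. The 7 Schwann cell and neural markers went the other way, at 21.4 to 23.6 against 38.5 to 62.0. All markers of these lists were above 0 in some library of both compartments, and their part in the result was not tested. No run of the sequencer held both compartments, so run and compartment cannot be told apart. Both calls were lost when all 25 libraries shared 1 estimate of the spread (adjusted p = 0.957 for Hey2 and 1 for Heyl, limma), and with the run as a further term the difference of Hey2 was 1.19. The call of Heyl was also lost with no minimum (adjusted p = 0.0656) and without lateral replicate 2 or 3 or medial replicate 2 (adjusted p from 0.0512 to 0.0586).

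**Figure D2:**
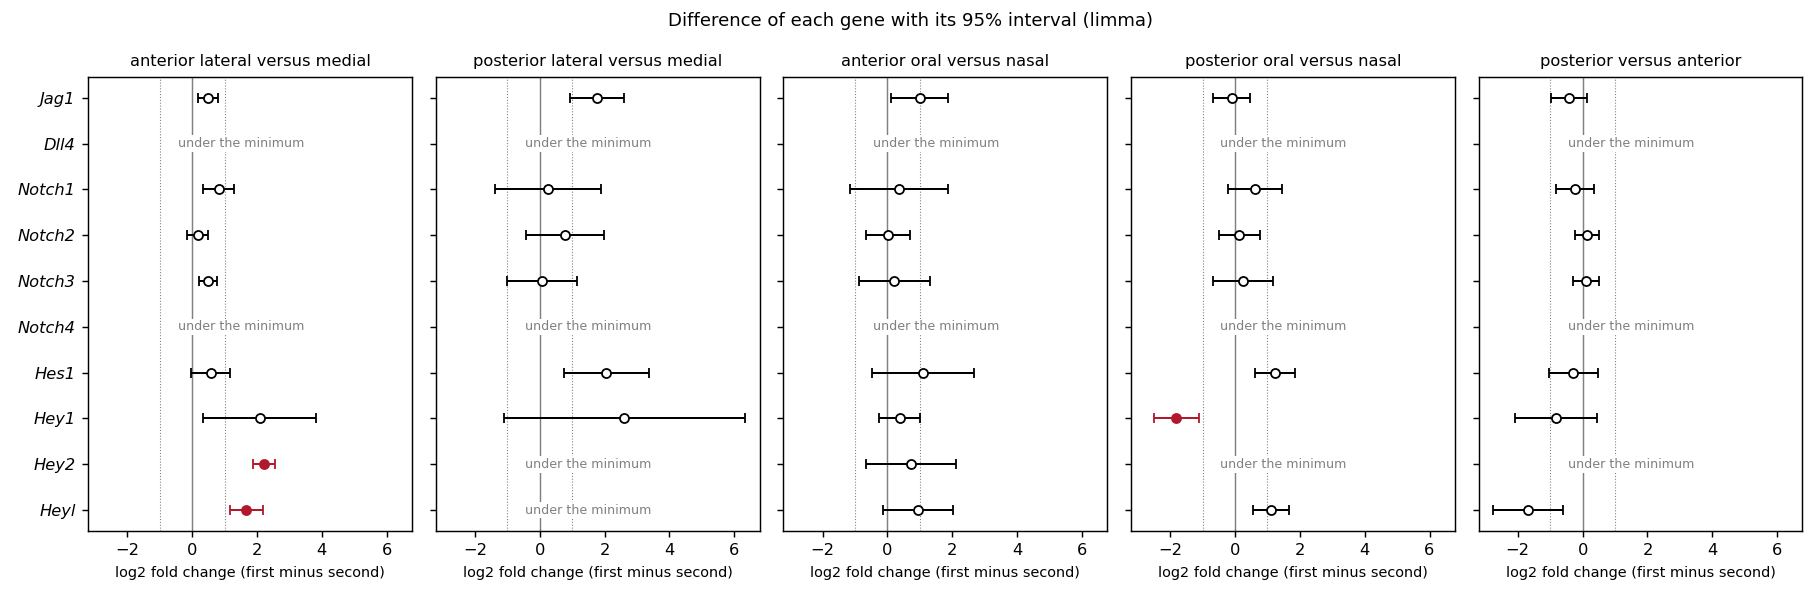
Log2 fold change of each gene in the 5 comparisons (horizontal axis, first group minus second) with its 95% interval from limma. Filled red points passed an adjusted p of 0.05, and dotted lines mark a fold change of 2. Hey2 (2.23) and Heyl (1.67) in anterior lateral against medial and Hey1 (-1.81) in posterior oral against nasal are the 3 filled points.

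In the posterior palate no gene of the 10 passed an adjusted p of 0.05 between lateral and medial, and neither did any of the 10324 genes tested (0.0%; limma, lowest adjusted p 0.45, with 159 genes, 1.54%, at an unadjusted p under 0.05). Jag1 and Hes1 met the study's thresholds, higher in lateral, and were the 2 with an unadjusted p under 0.05 among 6 tested genes. Of all genes 1.12% met the thresholds, 0.62% with lateral the higher. In posterior medial 0 of 3 libraries reached 5 RPKM for Jag1 and 1 of 3 for Hes1, so both needed their lateral libraries to be tested and the count is not read against that share. Jag1 was at 14.6, 11.8 and 10.4 RPKM in lateral and at 4.43, 2.33 and 4.01 in medial, with a log2 difference of 1.78 (SE 0.34, adjusted p = 0.957). Hes1 was at 20.9, 16.9 and 13.5 RPKM in lateral and at 7.31, 1.76 and 4.78 in medial, with a difference of 2.06 (SE 0.54, adjusted p = 0.957). Every lateral library lay above every medial one for these 2 genes, and for no other of the 10; over all genes tested, groups did not overlap for 6.62%, and lateral was the higher in 3.02%.

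Hey1 was at 10.3, 4.57 and 10.6 RPKM in posterior lateral and at 3.75, 0 and 5.86 in posterior medial, so the groups overlapped, with a log2 difference of 2.61 (SE 1.54, adjusted p = 0.957, limma). Without posterior medial replicate 2 the differences were 0.75 for Hey1, 1.503 for Jag1 and 1.49 for Hes1. The receptors tested gave differences of 0.26 for Notch1, 0.78 for Notch2 and 0.07 for Notch3, each with a 95% interval that held 0, and without posterior medial replicate 2 they were -0.49, 0.25 and -0.0279. The median difference was 1.28 over the 6 tested genes and 0.05 over all genes. Jag1, Hes1 and Hey1 needed lateral libraries to be tested, so this median is a description. Libraries of the 2 compartments shared no run here either. Dll4, Notch4, Hey2 and Heyl were under the minimum. Heyl, which separated the compartments in the anterior palate, was at 3.27, 6.11 and 4.32 RPKM in posterior lateral and at 6.81, 0 and 1.94 in posterior medial, and Hey2 was at 2.77, 0.547 and 0.339 against 1.38, 0 and 1.13. Both genes overlapped between the posterior compartments. The endothelial marker sum was 212 to 265 RPKM in posterior lateral and 141 to 254 in posterior medial, with overlap. Other lists lay apart, all higher in medial: the mural sum was 95.8 to 117 against 137 to 195, the 12 epithelial markers summed to 30.8 to 51.3 against 69.0 to 192, the 7 macrophage markers to 41.5 to 59.8 against 63.9 to 88.1, and the Schwann cell and neural markers to 12.7 to 15.5 against 20.1 to 50.3. The mural genes Rgs5, Myh11 and Abcc9, looked at singly, overlapped between the posterior compartments. Rgs5 was at 0.743 to 12.9 RPKM in lateral and 0.71 to 10.03 in medial. Myh11 was at 0.439 to 12.9 against 1.03 to 10.3, and Abcc9 at 2.01 to 5.45 against 0.664 to 3.06. The part of the cells of these lists in the differences was not tested.

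Whether the lateral-medial difference itself differed between the ends of the palate was tested as an interaction. None of the 8 genes tested passed an adjusted p of 0.05 (limma), against 0.00902% of 11089 genes, and 2 had an unadjusted p under 0.05, against 3.36%. For Jag1 the anterior difference was smaller than the posterior one by 1.28 on the log2 scale (interaction -1.28, SE 0.35, adjusted p = 0.773), and for Hes1 the interaction was -1.49 (SE 0.65, adjusted p = 0.964). These 2 met the study's thresholds, as did 2.42% of all genes, and without posterior medial replicate 2 their interactions were -1.01 and -0.93. For Hey2 and Heyl the interactions were 1.501 and -0.34, with 95% intervals from -1.51 to 4.51 and from -4.03 to 3.34, and without posterior medial replicate 2 they were 2.75 and 1.40.

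The oral and nasal faces were compared next. In the anterior palate none of the 8 genes tested passed an adjusted p of 0.05, nor did any of 10684 genes (0.0%; limma, lowest adjusted p 0.114, with 318 genes, 2.98%, at an unadjusted p under 0.05, among them 1 of the 10). None of the 10 genes had groups that did not overlap, against 3.67% of all genes, and 0 met the study's thresholds, against 1.44%. Jag1 was closest: the oral libraries were at 10.2, 15.6 and 23.9 RPKM and the nasal ones at 11.3, 7.57, 8.60 and 4.99, a log2 difference of 0.99 (SE 0.38, unadjusted p = 0.0296, adjusted p = 1.00). Heyl was at 13.6, 14.4 and 32.7 RPKM in oral and 19.6, 6.21, 7.25 and 10.03 in nasal, with a difference of 0.93 (SE 0.47).

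Libraries of both anterior faces were sequenced together in 3 runs, each with 1 oral library and 1 or 2 nasal ones. Within them the differences were 0.13 to 2.23 for Jag1, 0.30 to 1.69 for Heyl, 0.10 to 0.50 for Hey1 and 0.20 to 1.60 for Hey2, oral being the higher each time. Hes1 and the receptors were higher in oral in 2 of 3 runs. The libraries of a face were far apart: Hes1 ran from 2.03 to 22.1 RPKM in anterior nasal, and Notch1 from 3.40 to 24.7 in anterior oral, where replicate 1 was the lowest library of the 3 for all genes but Hey2. Hey2 was highest in that library, at 12.7 RPKM against 5.32 and 5.26. Without this library the difference of Jag1 was 1.30 (adjusted p = 0.511, limma), that of Hey2 went from 0.73 to 0.31, and that of Notch1 from 0.35 to 1.21. The osteoblast markers summed to 47.0 to 75.0 RPKM in anterior oral and to 90.6 to 120 in anterior nasal.

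Hey1 was higher in the nasal than in the oral face of the posterior palate, 3.51-fold, and this passed an adjusted p of 0.05. Its nasal libraries were at 17.0, 16.6 and 18.5 RPKM and its oral ones at 5.98, 3.04 and 6.38, so the groups lay well apart. The log2 difference, oral minus nasal, was -1.81 (SE 0.30, adjusted p = 0.0339; limma with Benjamini-Hochberg adjustment). It was the only one of 7 tested genes that passed, against 1.25% of 10586 genes and 0.661% that were higher in nasal. Of the same libraries, 1 run held 1 oral and 1 nasal library and another held 2 oral and 1 nasal. Within these 2 runs the difference was -1.49 and -1.89. The call was lost with no minimum (adjusted p = 0.162), with a minimum of 1 RPKM (adjusted p = 0.0628), with the replicate number as a block (adjusted p = 0.05), with all 25 libraries in 1 fit (adjusted p = 1), and without any 1 of the 6 libraries except posterior oral replicate 2 (adjusted p from 0.0649 to 0.177), while the difference stayed between -1.48 and -2.0 without any 1 library. In this comparison markers of bone-forming cells moved with Hey1: 6 osteoblast markers summed to 378 to 548 RPKM in posterior nasal and to 83.5 to 107 in posterior oral. In anterior oral, where Hey1 was at 12.2 to 20.9 RPKM, they summed to 47.0 to 75.0. The part of these cells in the result was not tested.

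Heyl and Hes1 leaned the other way. Heyl was at 10.5, 11.3 and 7.0 RPKM in posterior oral and at 4.602, 4.24 and 3.97 in posterior nasal. Hes1 was at 13.1, 14.3 and 13.7 RPKM in oral and at 4.09, 8.05 and 5.70 in nasal. In both cases the oral libraries lay above the nasal ones without overlap. The differences were 1.12 (SE 0.24, adjusted p = 0.0868) and 1.24 (SE 0.27, adjusted p = 0.0886, limma), Hey1, Heyl and Hes1 met the study's thresholds, as did 3.5% of all genes, and had groups that did not overlap, as did 11.8%. In posterior nasal 0 of 3 libraries reached 5 RPKM for Heyl and 2 of 3 for Hes1, and in posterior oral 2 of 3 did for Hey1, so each of the 3 genes needed the group where it was high to be tested and the counts are a description. Within runs the difference was 1.05 and 1.17 for Heyl and 0.79 and 1.66 for Hes1. The endothelial marker sum was 226 to 314 RPKM in oral and 96.5 to 158 in nasal, and the arterial sum was 46.2 to 65.5 against 27.9 to 40.6, while the mural sum overlapped (126 to 164 against 101 to 141). Jag1, Notch1, Notch2 and Notch3 had differences of -0.10, 0.62, 0.14 and 0.24, each with a 95% interval that held 0. The median difference was 0.24 over the 7 tested genes and -0.01 over all.

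The test of whether the oral-nasal difference differed between the ends turned on Hey1. In the anterior palate Hey1 was at 12.2, 17.0 and 20.9 RPKM in oral and at 13.3, 9.64, 12.7 and 14.8 in nasal, where the posterior libraries had shown nasal far above oral. The interaction was 2.20 (SE 0.41, 95% interval 1.30 to 3.10, unadjusted p = 1.75e-04) with an adjusted p of 0.103 (limma), and without any 1 library it lay between 1.86 and 2.41. Of 8 tested genes 0 passed the adjusted threshold, against 0.035% of 11442 genes; Hey1 and Jag1 (1.096, adjusted p = 1) met the study's thresholds, as did 2.38% of all genes, and they were the 2 with an unadjusted p under 0.05, against 3.38%.

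Along the length of the palate, Hey2 and Heyl were the genes that stood out, both higher in the anterior. The 13 anterior libraries held Hey2 at 1.38 to 12.7 RPKM (median 5.26) and the 12 posterior ones at 0 to 2.77 (median 0.597). Heyl was at 4.69 to 32.7 RPKM (median 13.6) in the anterior and at 0 to 11.3 (median 4.46) in the posterior. The ranges of the ends overlapped for both, as they did for all 10 genes, while 0.267% of all genes had ranges apart; for Hey2 this came from anterior medial and 1 anterior nasal library.

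For the comparison of the ends the study used an Audic-Claverie test of pooled libraries, while its thresholds are applied here to limma p-values. The study required 10 RPKM or more in 6 or more libraries. Hey2 did not reach that minimum. Of the 7 genes that did, 0 passed an adjusted p of 0.05, against 3.32% of 8608 genes, 1 had an unadjusted p under 0.05, against 15.3%, and the same 1, Heyl, met the study's thresholds, against 1.75% (1.01% higher in anterior). The log2 difference of Heyl, posterior minus anterior, was -1.68 (SE 0.52, adjusted p = 0.0830, limma). With 1 library left out it passed in 1 of 25 fits, that without posterior medial replicate 2 (-1.199, adjusted p = 0.0191, limma). Of 10 alternatives it passed in 3: a fit by the 8 compartments (-1.70, adjusted p = 0.0268), quantile normalization (-1.40, adjusted p = 0.00991) and a pseudocount of 1 (-1.29, adjusted p = 0.0221). In the others it did not pass, with an adjusted p of up to 0.133 without anterior lateral replicate 2 and 0.189 with a pseudocount of 0.01. With a minimum of 5 RPKM in 3 libraries Hey2 was tested, but it reached that minimum only through anterior libraries and so had to differ. Its difference was -2.60 (SE 0.47, adjusted p = 0.00098, limma), and with no minimum the adjusted p was 0.00176. It was -2.34 without posterior medial replicate 2 and -2.21 without the 2 libraries that stood apart (adjusted p = 0.000744 and 0.0013). In the 3 runs that held both ends the differences were -1.50 to -2.98 for Hey2 and -1.37 to -2.01 for Heyl. End and compartment were mixed in 2 of these runs: one held anterior tissue only as medial, against posterior medial, oral and nasal, and another held 1 anterior lateral library against posterior lateral and nasal.

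The other genes gave smaller differences between the ends, none of them past the threshold. They were -0.42 for Jag1, -0.23 for Notch1, 0.13 for Notch2, 0.10 for Notch3, -0.29 for Hes1 and -0.82 for Hey1, and each 95% interval held 0. Without posterior medial replicate 2 they were -0.25 for Jag1, -0.0771 for Notch1, 0.28 for Notch2, -0.0887 for Hes1 and -0.29 for Hey1. Dll4 and Notch4 overlapped between the ends (0.707 to 6.92 against 0 to 6.06 RPKM, and 1.93 to 9.43 against 1.78 to 7.65). Over the 7 tested genes the median was -0.29, and 0.03 over all genes.

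Split by compartment, the ends differed in unlike ways. In lateral tissue 5 of the 10 genes, Jag1, Notch1, Hey1, Hey2 and Heyl, had anterior libraries that all lay above the posterior ones; of all genes that reached 5 RPKM in 3 of these libraries the groups did not overlap for 18.9%, with anterior the higher in 10.8%. The mean log2 difference there was -3.03 for Hey2 and -2.16 for Heyl. In oral tissue Hey1, Hey2 and Heyl were apart in the same direction, by -1.72, -3.81 and -0.98, 3 genes against 8.26% of all and 2.87% with anterior the higher. In medial tissue Jag1 (-1.69), Hes1 (-1.38) and Hey2 (-1.53) were apart and higher in the anterior, and Notch4 (0.61) was apart and higher in the posterior, 4 genes against 11.9% and 6.94% with anterior the higher. For Hey2 the lowest anterior medial library and the highest posterior medial one were both at 1.38 RPKM when rounded. Without posterior medial replicate 2 the other medial values still lay apart, with Jag1 at 10.1 or more in the anterior against 4.43 and 4.01, and Hes1 at 8.56 or more against 7.31 and 4.78. In nasal tissue Heyl was apart and higher in the anterior (-1.17), and Hey1 was apart and higher in the posterior (0.48), 2 genes against 20.3% and 5.91% with anterior the higher. In medial tissue Hey2 and Notch4 did not reach 5 RPKM in 3 libraries, so they are not among the genes of that share. Hey2 in lateral and oral, Heyl in nasal and Jag1 in medial tissue reached it only through anterior libraries. Hey1 and Heyl in lateral, Hey1 in oral and Hes1 in medial tissue needed anterior libraries too. The counts are therefore a description and are not read against the shares. With 3 libraries against 3 no exact test of a single gene can go below 0.1, and no p is given for these splits.

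**Figure D3:**
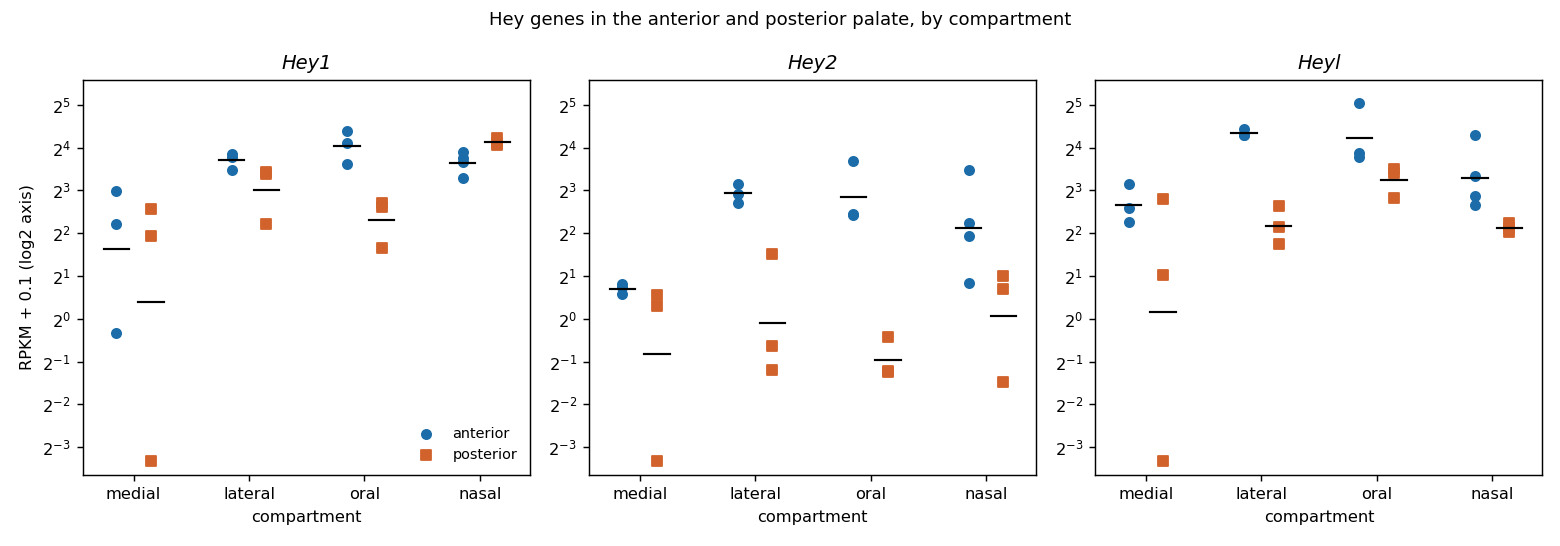
RPKM plus 0.1 of Hey1, Hey2 and Heyl on a log2 axis in the anterior (circles) and posterior (squares) libraries of each compartment; bars are means on the log scale. Hey2 and Heyl have the anterior mean above the posterior one in all 4 compartments, while Hey1 has it reversed in nasal tissue, and the lowest squares in medial are posterior medial replicate 2, listed at 0.

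The sum of the mural and smooth muscle markers had a higher median in the anterior, with ranges that overlapped. It was 139 to 292 RPKM (median 202) in the anterior and 95.8 to 195 (median 130) in the posterior. The arterial sum was 38.4 to 110 (median 68.9) against 27.9 to 95.7 (median 49.7), and the endothelial sum was no higher in the anterior, at 122 to 324 (median 191) against 96.5 to 314 (median 213). Posterior medial replicates 1 and 3 had arterial sums of 95.7 and 91.4 RPKM with Hey2 at 1.38 and 1.13. Of the 5 arterial markers only the connexin genes Gja5 and Gja4 were looked at singly. In posterior medial they were at 0.134 to 6.44 and 5.90 to 12.1 RPKM, against 28.1 to 42.4 and 16.6 to 22.4 in anterior lateral. The rest of each sum came from Efnb2, Sox17 and Bmx, whose own levels are not given. Posterior medial replicate 2, the library that stood apart, had a mural sum of 195 RPKM with Heyl listed at 0. Of mural genes looked at singly, Rgs5 was at 0.71 to 10.03 RPKM in posterior medial and 24.7 to 29.8 in anterior lateral. Abcc9 was at 0.664 to 3.06 against 13.01 to 14.4, while Myh11 overlapped, at 1.03 to 10.3 against 5.95 to 7.3. The part of these cells in the differences of Hey2 and Heyl was not tested.

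**Figure D4:**
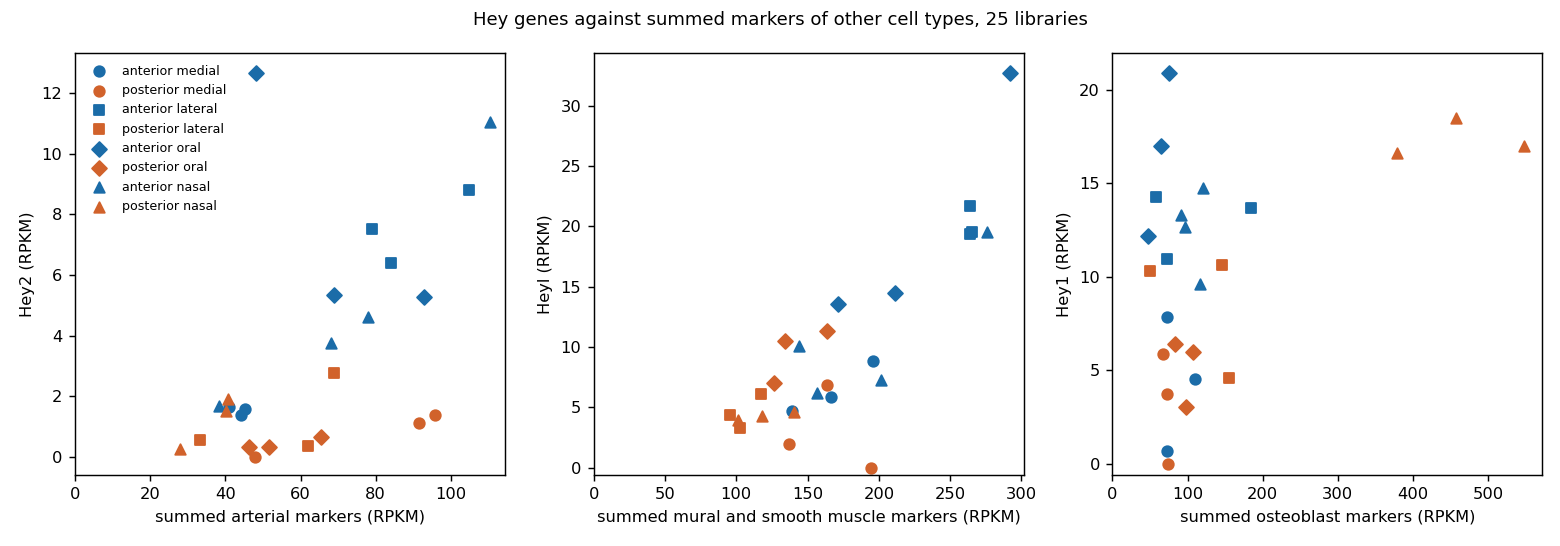
Hey2 against 5 summed arterial markers, Heyl against 12 summed mural and smooth muscle markers and Hey1 against 6 summed osteoblast markers (both axes in RPKM), 1 point for each of the 25 libraries, blue for anterior and orange for posterior, with a shape for each compartment. Anterior lateral lies at high sums with high Hey2 and Heyl, posterior medial replicates 1 and 3 have arterial sums above 91 with Hey2 under 2 RPKM, and posterior nasal stands alone at osteoblast sums of 378 to 548.

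A further 52 genes of the pathway were followed: other ligands, enzymes that modify, cut or sort the receptors and ligands, nuclear partners, and other Hes genes. Most of the machinery was detected: all 12 nuclear and corepressor genes, 7 of 10 protease genes and all 5 glycosylation genes reached 5 RPKM in at least 3 libraries. Rbpj was at 12.7 to 32.0 RPKM, while Lfng, a fringe enzyme, had a median of 1.16. Of the other ligands only Dlk1, a Delta-like protein without the domain that activates receptors, did so, at 17.5 to 86.5 RPKM. Jag2 and Dll1 stayed at or below 4.70 and 2.71 RPKM. Of the other Hes family and target genes listed, only Hes6 and Nrarp, a feedback inhibitor, reached 5 RPKM in at least 3 libraries.

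None of these genes passed an adjusted p of 0.05 between lateral and medial (0 of 33 tested in the anterior and 0 of 32 in the posterior) or between oral and nasal (0 of 32 at either end), by limma. At an unadjusted p under 0.05 there were 5, 0, 1 and 3 of them in these comparisons, where 15.0%, 1.54%, 2.98% and 8.0% of all genes were. Mfng, the Manic fringe enzyme that adds sugars to Notch receptors, was the 1 of 32 tested genes that met the study's thresholds at each end, against 1.44% of all genes in the anterior and 3.5% in the posterior. It averaged 15.1 ± 2.38 RPKM in anterior oral (n = 3) and 7.03 ± 2.14 in anterior nasal (n = 4), a log2 difference of 1.13 (adjusted p = 0.885), and 14.1 ± 5.27 in posterior oral and 5.88 ± 1.87 in posterior nasal (n = 3 each), a difference of 1.22 (adjusted p = 0.257). Between the ends 3 of 27 tested genes passed, all higher in the posterior, against 3.32% of all genes, and 4 of 27 had an unadjusted p under 0.05, against 15.3%. They were Dlk1 (53.2 ± 17.9 in 12 posterior and 31.5 ± 11.0 in 13 anterior libraries, log2 difference 0.76, adjusted p = 0.0223) and the Groucho-type corepressors Tle2 (0.64, adjusted p = 0.0350) and Tle1 (0.36, adjusted p = 0.0377; limma). Neither interaction had a gene of the list that passed (0 of 34 and 0 of 33, with 0 at an unadjusted p under 0.05 in both). The median log2 difference of the tested genes lay between -0.15 and 0.10 in the 7 comparisons.

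Genes with the most similar pattern were found by the Pearson correlation of log2(RPKM + 0.1) over the 25 libraries, among the 11913 genes that reached 5 RPKM in 3 or more of them. The values are a description: all genes of a library share its depth and its makeup of cells. For Hey2 the nearest were Abcc9 (r = 0.885), a potassium channel subunit of mural cells, and Gja5 (r = 0.862), which encodes a connexin of arterial endothelium. Gja5 was at 28.1 to 42.4 RPKM in anterior lateral and at 0.779 to 1.93 in anterior medial, and Abcc9 was at 13.01 to 14.4 against 5.19 to 6.75. For Heyl they were Adam23 (0.947) and Olfml2a (0.940), and for Hes1 the endothelial junction gene Cldn5 (0.823) and Fras1 (0.822). For Hey1 the nearest was a row with the symbol Gm10033 (0.881), a symbol also carried by a row listed at 0 in every compartment. Next came a row whose symbol is written as a date. Jag1 was nearest to Crabp1 (0.830), a retinoic acid binding protein, and Ccnd2 (0.813). The nearest genes were Arnt2 (0.934) and Sox13 (0.911) for Notch1, BC018242 (0.948) and Dag1 (0.942) for Notch2, Cd248 (0.876), a pericyte and fibroblast surface protein, and Atn1 (0.845) for Notch3, and Tiam1 (0.859) and the endothelial matrix gene Mmrn2 (0.839) for Notch4. Dll4 was too low to be included.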

How the data were processed

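The authors deposited 1 table of RPKM values for 37406 genes in 25 libraries. The header of anterior medial replicate 2 lacks the word RPKM, and its values were read as RPKM. The RNA was amplified and tagmented, and reads of 50 bases were used after duplicate reads and reads with more than 1 alignment had been removed (GeneSpring 12.6.1). The submitters' processing notes name TopHat and mm9. Each library's compartment and replicate number came from its title. The study calls the replicates biological, but no label ties a library to an embryo, so p-values measure the spread between these libraries. The 8 runs were read from alignment names.

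Values were put on the scale log2(RPKM + 0.1), which understates fold changes of low genes, and tested with limma 3.58.1 (R 4.3.3). A gene had to reach 5 RPKM in 3 of the libraries compared, or 10 RPKM in 6 for posterior versus anterior. Adjusted p-values are Benjamini-Hochberg over all genes tested. The comparisons share libraries. Depth was inferred from short genes whose low values are whole multiples of 1 read; counts were not used here. Read intervals cover counting error only. The genes, the lists and the alternatives were chosen with earlier results of these data known. The 10 genes are named in every comparison, and of the other pathway genes those that met the study's thresholds or passed. The code was tested on simulated data. The printed fits have no replicate block. In anterior oral against nasal same-numbered libraries had r = 0.239, 0.215 and 0.13, but only replicate 1 correlated best with its own number. Whether the numbers pair these libraries is therefore open. The fit with the block called 0 of the 10 genes, as did the fit without it.

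Figures and tables were made with Python 3.11.15, pandas 2.3.3 and matplotlib 3.10.9.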

Additional observations from a re-analysis of the deposited data

Results flagged for a closer look

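Notch2 in anterior nasal had 1 library far from the rest: replicate 4 was at 15.8 RPKM, where the other libraries were at 22.2, 23.4 and 23.2. The gap made up 0.838 of the whole range, above Dixon's 95% critical value for 4 samples. The check was made in 10 groups, the 10 genes in the only compartment with 4 libraries, and chance alone gives such a gap in about 1 of 20.

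Hey1 differed between the ends in opposite directions in different compartments. It was higher in all posterior than in all anterior libraries of nasal tissue, and higher in all anterior than in all posterior libraries of lateral and of oral tissue. Groups did not overlap for 20.3% of all genes in nasal, 18.9% in lateral and 8.26% in oral tissue. In lateral tissue the lowest anterior library was at 11.0 RPKM and the highest posterior one at 10.6. The log2 difference of Hey1, posterior minus anterior, was greater in nasal than in lateral by 1.17, which was not tested. It was greater in nasal than in oral by 2.20, which is the oral-nasal interaction of the report (adjusted p = 0.103, limma).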

How the results depend on the processing

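The number of the 10 genes that passed an adjusted p of 0.05 was recomputed under 10 alternatives and 75 fits that left out 1 library each. Alternatives that changed the number were these. In anterior lateral against medial it went from 2 to 1 with no minimum and to 0 with all 25 libraries in 1 fit, with or without the run, and lay between 0 and 2 with a library left out. Without any 1 lateral library Hey2 fell under the minimum and was not tested, so these fits could not call it. Without any 1 medial library Hey2 still passed (adjusted p from 0.00374 to 0.00632, limma). In posterior lateral against medial it went from 0 to 1 (Jag1, adjusted p = 0.00922) with all 25 libraries in 1 fit. In posterior oral against nasal it went from 1 to 0 with no minimum, the lower minimum, the replicate block and both fits of all 25 libraries, and lay between 0 and 1 with a library left out. Between the ends it went from 0 to 1 with a pseudocount of 1, quantile normalization, no minimum, the lower minimum and all 25 libraries in 1 fit, and lay between 0 and 1 with a library left out (1, Heyl, without posterior medial replicate 2). In anterior oral against nasal and in both interactions it was 0 throughout. Apart from the fits in which Hey2 was under the minimum, the cause of these changes was not tested. The values within runs, and those between the ends without the 2 libraries that stood apart, were chosen after seeing the data.

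The replicate block, which pairs libraries by number, ended the call of Hey1 in posterior oral against nasal (1 call to 0) and changed no other such call of the 10 genes; over all genes it took the number called from 262 to 157 in anterior lateral against medial, from 1 to 0 in the medial-lateral interaction and from 4 to 0 in the oral-nasal one. In anterior oral against nasal the block took the difference of Jag1 from 0.99 to 0.78 and that of Hes1 from 1.09 to 0.57. The numbers were not taken to pair the libraries, since in no comparison did every library correlate best with its own number. The correlation of same-numbered libraries was 0.13 to 0.239 in anterior oral against nasal and -0.155 to 0.00719 in anterior lateral against medial. It was 0.0361 to 0.277 in posterior lateral against medial and -0.0755 to 0.418 in posterior oral against nasal. Replicate 1 of anterior oral and nasal shared a run, as did replicates 1 and 2 of posterior oral and nasal.

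Over all genes, the number with an adjusted p under 0.05 ranged from 0 to 318 around 262 in anterior lateral against medial, 0 to 25 around 0 in posterior lateral against medial, 0 to 6 around 0 in anterior oral against nasal, 11 to 143 around 132 in posterior oral against nasal, 143 to 485 around 286 between the ends, 0 to 10 around 1 in the medial-lateral interaction and 0 to 10 around 4 in the oral-nasal one.

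No difference that met either threshold changed sign, but small ones did. With the run as a term the log2 differences were -0.0757 for Jag1 (anterior lateral against medial), -0.00169 for Notch2 (anterior oral against nasal), 0.10 for Jag1 (posterior oral against nasal), -0.16 for Notch3 (between the ends), -0.00125 for Notch1 (medial-lateral interaction) and 0.0577 for Hes1 (oral-nasal interaction). With quantile normalization they were -0.18 for Notch1 (posterior lateral against medial), 1.14 for Hey1 and 1.43 for Heyl (medial-lateral interaction) and 0.0377 for Notch3 (oral-nasal interaction). With a pseudocount of 1 the medial-lateral interactions were 0.18 for Hey1 and 0.60 for Heyl, and with the replicate block the values were -0.11 for Notch2 (anterior oral against nasal) and 0.11 for Notch3 (oral-nasal interaction). With 1 library left out, the range was -0.49 to 0.84 for Notch1 and -0.24 to 0.49 for Notch3 in posterior lateral against medial, -0.21 to 1.21 for Notch1, -0.12 to 0.30 for Notch2 and -0.30 to 0.62 for Notch3 in anterior oral against nasal, and -0.21 to 0.10 for Jag1 and -0.0453 to 0.36 for Notch2 in posterior oral against nasal. For the medial-lateral interaction it was -0.0277 to 1.31 for Notch1, -0.00375 to 0.72 for Notch3, -1.62 to 1.33 for Hey1 and -1.65 to 1.40 for Heyl. For the oral-nasal interaction it was -0.83 to 0.58 for Notch1, -0.34 to 0.16 for Notch2, -0.54 to 0.38 for Notch3, -0.68 to 0.45 for Hes1 and -0.60 to 0.14 for Heyl.

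Depth limits the low genes: Dll4, Notch4 and Hey2 were under the minimum in several comparisons. Lateral and medial libraries shared no run, so run and compartment cannot be told apart there.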

Other observations

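Over the 25 libraries the patterns of some of the 10 genes ran together, as a description without a test, since all genes of a library share its depth and makeup. Pearson's r of log2(RPKM + 0.1) was 0.784 between Notch3 and Notch4, 0.764 between Jag1 and Hes1, 0.723 between Jag1 and Heyl, 0.712 between Hey1 and Heyl and 0.698 between Hey2 and Heyl. It was 0.0969 between Notch2 and Hey2 and -0.146 between Notch4 and Hey1. Hes1 and Hey1, both targets of the pathway, had an r of 0.356.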
